A study of Mus musculus with 4 samples.

Results

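The genes described here build and organise the centrosome, the gamma-tubulin ring complex and the augmin complex. They were chosen by symbol: every gene on the array's annotation whose symbol begins with Cep and a digit, with Tubgcp, or with Haus and a digit, together with Tubg1, Pcnt, Cdk5rap2, Nin, Ninl, Sass6, Stil, Cenpj, Cntrob and Pcm1. The rule found 60 of the 18193 genes with a probe set of their own, covered by 121 probe sets. For a gene with several probe sets, the one with the highest mean was used. Of these 60 genes, 55 passed the filter on low values, a mean over the arrays of at least the median of all probe sets (an intensity of 16.9), which 11392 genes passed. The other 5 were Cep72, Cep83os, Cep170, Cep290 and Ninl. A symbol is not a role: Cep83os is listed by RefSeq as a long non-coding RNA.

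Expression was measured in mouse intestinal organoids, cultures of intestinal epithelium grown in a gel matrix, on 4 Affymetrix arrays. The groups were Tacc3 fl/fl organoids at day 6, Tacc3 wt/wt organoids at day 6, Tacc3 fl/fl organoids at day 4 and Tacc3 wt/wt organoids at day 4, with 1 array each. All 4 cultures received 4OHT (4-hydroxytamoxifen) for 24 hours, which the series design gives as the inducer of recombination of Apc and Tacc3. By the sample descriptions the cultures were normal at day 4 and lacked Apc at day 6, so the Apc state of the arrays is not settled. If those descriptions hold, day and Apc state cannot be told apart in any day difference below. The sources used here do not give the driver of the recombinase or the number of animals behind the cultures. Because no group has a second array, no difference below has a replicate check. Differences were described by their size on the log2(intensity + 16) scale, and a gene was counted where 2 arrays were at least 2-fold apart (1 on that scale). In these bulk cultures, fewer cells of a type and less RNA per cell cannot be told apart.

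The centrosome consists of a pair of centrioles surrounded by pericentriolar material, and it is the main site where animal cells start microtubules. Gamma-tubulin, held in a ring by the gamma-tubulin complex proteins, is the template for a new microtubule. Pericentrin and CDK5RAP2 hold these rings at the centrosome, and augmin recruits them to the sides of microtubules already in the spindle. New centrioles are made once per cell cycle on a SASS6 and STIL cartwheel, and the older centriole carries the appendages that anchor microtubules and a primary cilium. In the intestine these structures serve the dividing cells of the crypt, whereas in differentiated enterocytes many microtubules are anchored near the apical surface. TACC3, the protein of the floxed gene, acts with ch-TOG and clathrin on spindle microtubules.

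Stretches of promoter are shown for some of the 19 genes of the set with a wt/wt day 6 reading at least 2-fold above that of day 4. These are Cep70, Haus4, Cep152, Cep44, Cep55 and Tubgcp3. Pcnt and Cep112 are also shown, because they share a short element with Cep70, Haus4, Cep152 and Cep44. No other gene of the 19 had a match to that element. Each is the 250 bases before an annotated transcript start, 5' to 3' along the gene, from RefSeq on GRCm38.p6, whose table held a promoter for 50 of the 60 genes. Capitals mark 4 elements on either strand, and where these overlap the capitals run on. They are the E2F-type element TTCCCGCC, the CHR element TTTGAA, the CCAAT box CCAAT and the GC box GGGCGG.
Cep70, chr9:99243091-99243340, plus strand: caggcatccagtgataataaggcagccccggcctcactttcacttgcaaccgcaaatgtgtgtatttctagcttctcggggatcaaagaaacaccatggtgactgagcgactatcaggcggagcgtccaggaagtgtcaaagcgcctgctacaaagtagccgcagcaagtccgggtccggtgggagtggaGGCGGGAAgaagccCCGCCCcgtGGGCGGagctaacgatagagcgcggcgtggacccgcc
Haus4, chr14:54554362-54554611, minus strand: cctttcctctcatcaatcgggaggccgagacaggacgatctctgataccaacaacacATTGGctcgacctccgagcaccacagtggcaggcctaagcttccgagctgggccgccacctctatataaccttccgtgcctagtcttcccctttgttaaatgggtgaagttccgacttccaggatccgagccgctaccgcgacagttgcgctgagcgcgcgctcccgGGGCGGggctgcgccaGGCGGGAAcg
Cep152, chr2:125625114-125625363, minus strand: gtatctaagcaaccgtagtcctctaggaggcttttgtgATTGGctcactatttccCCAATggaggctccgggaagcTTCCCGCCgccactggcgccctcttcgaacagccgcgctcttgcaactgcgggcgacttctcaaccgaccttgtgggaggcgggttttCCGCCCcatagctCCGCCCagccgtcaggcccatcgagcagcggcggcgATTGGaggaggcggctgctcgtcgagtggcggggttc
Cep44, chr8:56550567-56550816, minus strand: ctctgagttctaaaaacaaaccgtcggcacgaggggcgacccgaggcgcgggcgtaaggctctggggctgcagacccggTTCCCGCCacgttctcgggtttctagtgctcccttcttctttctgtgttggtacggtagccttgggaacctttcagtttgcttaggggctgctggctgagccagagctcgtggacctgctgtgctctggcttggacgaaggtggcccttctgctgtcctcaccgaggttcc
Pcnt, chr10:76442913-76443162, minus strand: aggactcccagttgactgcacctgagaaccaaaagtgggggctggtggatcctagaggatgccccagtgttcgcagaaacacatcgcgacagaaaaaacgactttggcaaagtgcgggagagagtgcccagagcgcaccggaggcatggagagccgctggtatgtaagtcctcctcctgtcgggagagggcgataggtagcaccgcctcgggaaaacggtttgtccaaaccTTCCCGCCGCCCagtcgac
Cep112, chr11:108425016-108425265, plus strand: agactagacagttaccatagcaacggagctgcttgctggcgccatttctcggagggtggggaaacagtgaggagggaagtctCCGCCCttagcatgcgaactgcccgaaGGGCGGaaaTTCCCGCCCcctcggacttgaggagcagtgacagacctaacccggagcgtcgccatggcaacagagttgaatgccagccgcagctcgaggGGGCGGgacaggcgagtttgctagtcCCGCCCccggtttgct
Cep55, chr19:38054791-38055040, plus strand: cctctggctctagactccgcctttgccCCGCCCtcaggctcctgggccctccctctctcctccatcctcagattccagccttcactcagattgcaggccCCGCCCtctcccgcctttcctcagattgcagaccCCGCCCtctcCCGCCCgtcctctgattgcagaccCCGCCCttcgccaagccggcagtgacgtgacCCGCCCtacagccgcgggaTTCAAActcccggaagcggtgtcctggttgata
Tubgcp3, chr8:12672101-12672350, minus strand: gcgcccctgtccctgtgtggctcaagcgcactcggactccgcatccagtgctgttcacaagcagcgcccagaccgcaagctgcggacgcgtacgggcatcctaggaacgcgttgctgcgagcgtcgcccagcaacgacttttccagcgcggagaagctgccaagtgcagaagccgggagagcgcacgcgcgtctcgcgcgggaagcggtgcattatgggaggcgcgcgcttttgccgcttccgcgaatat
In the Tubgcp3 stretch none of these letters was found.

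The E2F-type letters stood in 6 of the 60 promoter windows of the set, against 1.86% of all 32851 windows of that length. The GC box letters stood in 36 windows (60.0%, against 32.7% of all windows), the CCAAT box in 23 (38.3%, against 33.8%) and the CHR element in 8 (13.3%, against 5252 of all 32851 windows). The median content of G and C was 61.0% in the windows of the set and 52.4% in all windows. Some genes have several windows, and the one shown above was then picked for holding the E2F-type or CHR letters, where any did. The letters were picked after their counts in these windows had been seen, and a match is a description, not a site. The 6 genes with the E2F-type letters did not move alike between the days in wt/wt organoids. Cep70 (1.38), Cep44 (1.34), Haus4 (1.22) and Cep152 (1.21) were 2-fold higher at day 6 and Pcnt was higher by 0.85, whereas Cep112 was lower with -0.55. Each array was also centred on its median over the genes past the filter. Cep70 (0.99), Cep44 (0.96), Haus4 (0.84) and Cep152 (0.83) were then no longer 2-fold apart, and after quantile normalization Haus4 (0.80) and Cep152 (0.98) were not.

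Tacc3, the floxed gene, was lower in both fl/fl cultures. It read 49.7 in fl/fl and 167 in wt/wt organoids at day 6, and 59.8 in fl/fl and 184 in wt/wt organoids at day 4. All 10 epithelial markers passed the filter, with summed intensities of 37635 in fl/fl and 33840.2 in wt/wt organoids at day 6, and 27805 in fl/fl and 21010.2 in wt/wt organoids at day 4. That sum was thus lowest on the wt/wt day 4 array, and the median day difference of these markers was 0.64 in fl/fl and 0.91 in wt/wt organoids. Of 9 mesenchymal, 7 immune and 5 endothelial markers, 2, 2 and 0 passed, and none of the 21 read above 45.6. No multiciliated cell marker of the 6 on the array passed, with a highest reading of 19.7 for Ccdc39, while Foxj1, the master regulator of that cell type, read at most 14.2. The summed mesenchymal markers were 106 in fl/fl and 111 in wt/wt organoids at day 6, and 144 and 184 in fl/fl and wt/wt organoids at day 4. The summed immune markers at day 6 were 81.7 in fl/fl and 81.3 in wt/wt cultures, against 92.1 and 112 at day 4. Those of endothelium summed to 40.8 and 37.8 in fl/fl and wt/wt organoids at day 6, against 55.7 and 66.7 at day 4. All 3 sums were thus highest on the wt/wt day 4 array, but most of these markers did not pass the filter. The multiciliated markers, none past the filter, summed to 53.3 in fl/fl and 53.2 in wt/wt organoids at day 6. At day 4 they summed to 66.4 in fl/fl and 69.5 in wt/wt organoids, so this sum too was highest on the wt/wt day 4 array. The arrays also differed in the 5' to 3' intensity ratio of control transcripts, a common measure of RNA integrity. For Actb it was 0.261 in fl/fl and 0.180 in wt/wt organoids at day 6, and 0.0627 in fl/fl and 0.0610 in wt/wt organoids at day 4. For Gapdh it was 0.524 and 0.411 in fl/fl and wt/wt organoids at day 6, and 0.142 and 0.208 at day 4. What part RNA quality or other cell types have in the differences below was not tested.

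Few genes of the set were 2-fold apart between the genotypes, and none in the same direction on both days. At day 6, 22 of the 55 genes were higher in fl/fl than in wt/wt organoids (against 56.6% of all genes). At day 4, 38 were higher in fl/fl (69.1%, against 66.7% of all genes). The median difference of the set was -0.07 at day 6, beside 0.05 for all genes, and 0.32 at day 4, beside 0.15 for all genes. At day 6 only Cep295 was 2-fold apart among the 55, lower in fl/fl organoids, where 0.571% of all genes were 2-fold lower and 0.211% 2-fold higher. At day 4 only Tubgcp3 was 2-fold apart, higher in fl/fl organoids, where 1.38% of all genes were 2-fold higher and 0.105% 2-fold lower. A 2-fold difference in the same direction on both days held for 0.00878% of all genes in the higher and 0.0176% in the lower direction. The 2 genotype differences share no array, and across the 55 genes they correlated at r = -0.14 (rho = -0.17), beside r = 0.02 across all genes. Genes are not independent replicates.

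**Figure D1:**
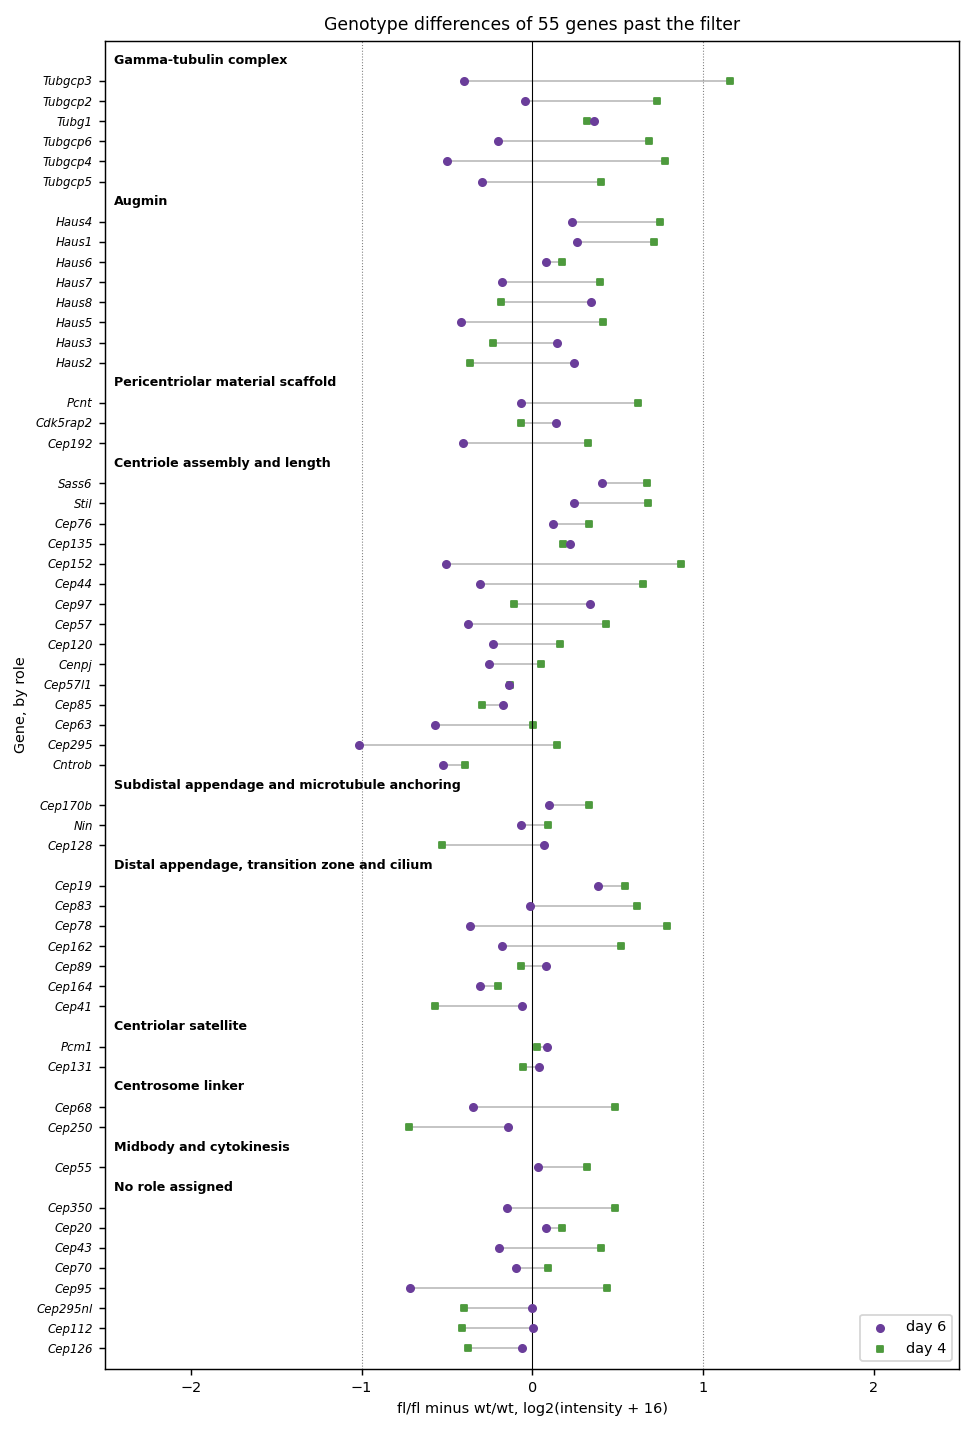
Genotype differences (fl/fl minus wt/wt, log2(intensity + 16), horizontal axis) of the 55 genes past the filter, grouped by role. Circles stand for day 6 and squares for day 4, each from 1 array per genotype, and dotted lines mark 2-fold. Tubgcp3 is the only gene beyond the line at day 4 and Cep295 the only one at day 6.

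The genes of the gamma-tubulin complex proteins shared a pattern. All 5 had their lowest value on the wt/wt day 4 array and their highest on the wt/wt day 6 array, with both fl/fl arrays in between. Over all genes, 15.7% had both the lowest and the highest value on those arrays. Tubgcp3, a core ring subunit, read 107 in fl/fl and 146 in wt/wt organoids at day 6, and 59.4 in fl/fl and 17.7 in wt/wt organoids at day 4. The genotype difference was thus -0.40 at day 6 and 1.16 at day 4. Tubgcp2, the other core subunit of the small complex, read 97.6 and 101 in fl/fl and wt/wt organoids at day 6, and 76.7 and 39.99 at day 4 (genotype differences of -0.04 and 0.73).

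The 3 subunits found only in the large ring went the same way. Tubgcp4 read 117 in fl/fl and 172 in wt/wt organoids at day 6, against 103 in fl/fl and 53.6 in wt/wt organoids at day 4. Tubgcp5 read 30.6 and 41.2 at day 6 in fl/fl and wt/wt organoids, and 19.6 and 10.9 at day 4. Tubgcp6 read 32.4 and 39.7 in fl/fl and wt/wt organoids at day 6, and 28.2 and 11.6 at day 4. Between the days, these 5 genes were higher at day 6 by 1.01 to 2.26 in wt/wt organoids, each past 2-fold, and by 0.13 to 0.70 in fl/fl organoids, none past 2-fold. Of these 5 wt/wt calls, centring ended those of Tubgcp2 (0.68), Tubgcp5 (0.70) and Tubgcp6 (0.63), and quantile normalization that of Tubgcp2 (0.78). Under quantile normalization or centring, the 5 genes kept the sign of both genotype differences and of the wt/wt day difference, while the fl/fl day difference turned to -0.06 and -0.05 for Tubgcp4 and, with centring, to -0.07 for Tubgcp6. The readings of 10.9 and 11.6 lie below the 16.9 of the filter, where the scale understates differences.

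Tubg1, which encodes gamma-tubulin itself, did not share this pattern. It read 103 in fl/fl and 77.0 in wt/wt organoids at day 6, and 110.3 in fl/fl and 85.2 in wt/wt organoids at day 4. The fl/fl reading was higher by 0.36 at day 6 and by 0.32 at day 4, and the days differed by -0.08 in fl/fl and -0.12 in wt/wt organoids. These values depend on the scale, since the day differences were -0.30 and -0.55 after quantile normalization and -0.29 and -0.51 with centring. The day 4 genotype difference was then 0.10 and 0.11. Its paralog Tubg2 did not pass the filter, with at most 14.9 on any array. Tubgcp4 alone in this complex had several probe sets past the filter, and all 3 were higher at day 6 in both genotypes. One of them read 51.4 in fl/fl and 122 in wt/wt organoids at day 6, against 21.3 in fl/fl and 13.4 in wt/wt organoids at day 4. The third did not share the pattern across the arrays, with 63.6 in fl/fl and 59.5 in wt/wt organoids at day 6, and 45.4 and 39.5 at day 4.

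**Figure D2:**
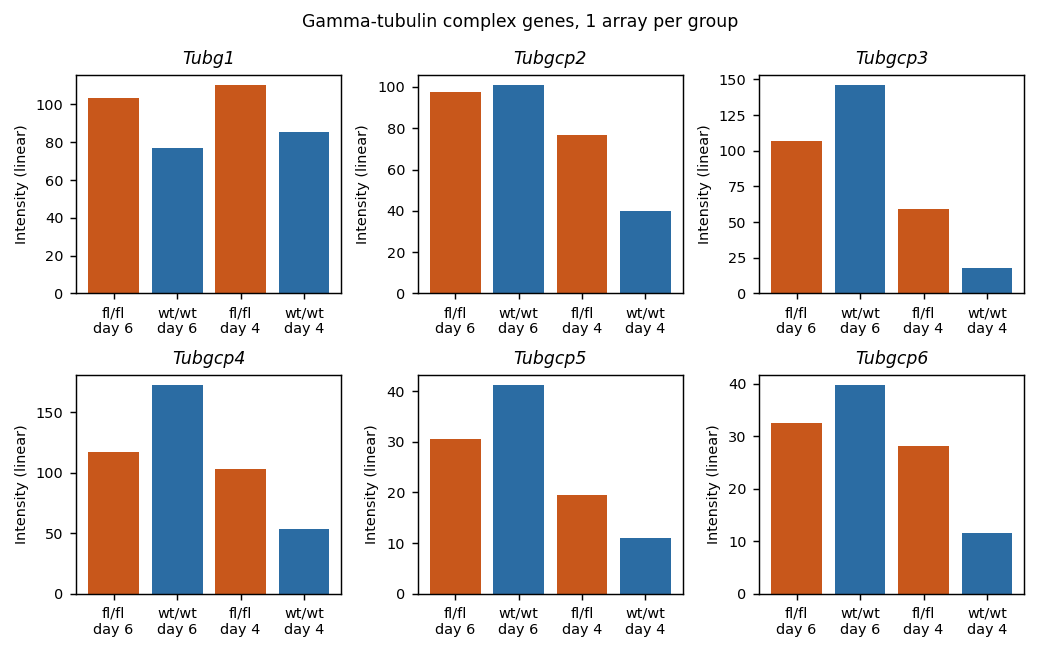
Linear intensity (vertical axis, from 0) of the 6 gamma-tubulin complex genes on the 4 arrays, fl/fl in orange and wt/wt in blue, day 6 left of day 4. Each bar is 1 array. The 5 Tubgcp genes are lowest on the wt/wt day 4 array and highest on the wt/wt day 6 array, and Tubg1 is higher in fl/fl on both days.

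The 8 augmin genes did not move as 1 complex. Haus1, Haus4 and Haus6 were higher at day 6 in both genotypes, whereas Haus2 and Haus8 were lower in both. Haus4 read 242 in fl/fl and 203 in wt/wt organoids at day 6, and 142 in fl/fl and 78.1 in wt/wt organoids at day 4. Haus1 read 259 and 213 at day 6 in fl/fl and wt/wt organoids, and 159.7 and 91.1 at day 4. Both were higher in fl/fl organoids on both days, by 0.23 and 0.26 at day 6 and by 0.75 and 0.71 at day 4. Haus6 read 112 in fl/fl and 105 in wt/wt organoids at day 6, against 56.0 in fl/fl and 47.8 in wt/wt organoids at day 4.

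Haus8, the subunit that binds microtubules, read 84.5 in fl/fl and 63.3 in wt/wt organoids at day 6, and 99.3 and 115 at day 4. Haus2 read 74.2 in fl/fl and 60.1 in wt/wt organoids at day 6, and 124 and 164 at day 4. Its probe sets do not agree, because another read 91.8 in fl/fl and 87.5 in wt/wt organoids at day 6, and 53.9 and 51.7 at day 4. Haus3, Haus5 and Haus7 differed by at most 0.65 between the days in either genotype. Over the complex, the median day difference was 0.08 in fl/fl and 0.57 in wt/wt organoids, with 0 and 2 of the 8 genes 2-fold higher and 0 and 1 lower. Of all genes, 12.2% and 18.3% were higher and 2.90% and 2.97% lower. Centring and quantile normalization ended both higher calls, with 0.71 and 0.65 for Haus1 and 0.84 and 0.80 for Haus4.

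Among the scaffold genes of the pericentriolar material, Cep192 was higher at day 6 and Cdk5rap2 lower. Cep192, which recruits the kinases that mature the centrosome, read 105 in fl/fl and 145 in wt/wt organoids at day 6, and 34.4 in fl/fl and 24.1 in wt/wt organoids at day 4. The day difference was 1.27 in fl/fl and 2.01 in wt/wt organoids, and the second Cep192 probe set past the filter had 0.37 and 0.95. Pcnt, the pericentrin gene, read 95.6 and 101 in fl/fl and wt/wt organoids at day 6, and 83.9 and 49.1 at day 4. Its other probe set went the other way, with 47.9 in fl/fl and 57.5 in wt/wt organoids at day 6 and 55.6 and 78.9 at day 4. Cdk5rap2, which activates the gamma-tubulin ring, read 58.4 in fl/fl and 51.5 in wt/wt organoids at day 6, and 104 and 109.6 at day 4. Its day difference was -0.69 in fl/fl and -0.90 in wt/wt organoids.

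The centriole assembly genes held both directions. On the probe sets used, the cartwheel genes Sass6 and Stil were higher in fl/fl than in wt/wt organoids on both days. They were also higher at day 6 in both genotypes. Sass6 read 92.4 in fl/fl and 65.7 in wt/wt organoids at day 6, and 54.7 in fl/fl and 28.5 in wt/wt organoids at day 4 (genotype differences of 0.41 and 0.67). The other Sass6 probe set, below the filter, had genotype differences of 0.25 at day 6 and -0.21 at day 4. Its day differences were 0.40 in fl/fl and -0.07 in wt/wt organoids. Stil read 78.4 and 63.9 at day 6 in fl/fl and wt/wt organoids, and 58.3 and 30.5 at day 4 (0.24 and 0.68). Cenpj, whose product acts in centriole assembly and length control, read 37.8 in fl/fl and 48.2 in wt/wt organoids at day 6, against 13.5 and 12.5 at day 4. Both day 4 readings lie below the 16.9 of the filter, which Cenpj passed through its day 6 readings. Its genotype differences were -0.25 at day 6 and 0.05 at day 4.

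Cep152, which recruits the kinase PLK4, read 65.5 in fl/fl and 99.6 in wt/wt organoids at day 6, and 75.2 in fl/fl and 33.9 in wt/wt organoids at day 4. Between the days it was higher by 1.21 in wt/wt organoids and differed by -0.16 in fl/fl organoids. Its partner Cep63 went otherwise, with 135 in fl/fl and 209 in wt/wt organoids at day 6, and 264 and 263 at day 4. Cep295, needed for centrioles to become centrosomes, read 31.2 in fl/fl and 79.2 in wt/wt organoids at day 6, and 32.5 and 27.9 at day 4. Its wt/wt day 6 reading thus stands apart from those of the other 3 arrays, and the genotype difference was -1.01 at day 6 and 0.14 at day 4. The other Cep295 probe set, below the filter, had genotype differences of -0.06 at day 6 and -0.03 at day 4.

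Several other genes of this role were higher at day 6 in wt/wt organoids. Cep44 read 59.0 in fl/fl and 76.9 in wt/wt organoids at day 6, and 41.5 in fl/fl and 20.6 in wt/wt organoids at day 4. Cep57 read 132 and 176 in fl/fl and wt/wt organoids at day 6, and 104 and 73.0 at day 4. Its second probe set did not follow, with 90.3 and 111 in fl/fl and wt/wt organoids at day 6 and 105 and 132 at day 4. Cntrob, which encodes the daughter centriole protein centrobin, had lower readings in the fl/fl cultures of both days, with 77.0 against 118 in wt/wt organoids at day 6 and 49.7 against 70.3 at day 4 (genotype differences of -0.52 and -0.39). Cep120 and Cep76 differed by at most 0.39 between the days.

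Cep85 and Cep135 were the centriole genes 2-fold lower at day 6 in both genotypes. Cep85 read 101 in fl/fl and 116 in wt/wt organoids at day 6, against 273 in fl/fl and 338 in wt/wt organoids at day 4. Its other probe set, below the filter, differed by -0.07 in fl/fl and 0.33 in wt/wt organoids. Cep135, a cartwheel-associated protein, read 16.7 in fl/fl and 12.1 in wt/wt organoids at day 6, against 53.5 and 45.4 at day 4. Cep97, a partner of CP110 in capping centrioles, and Cep57l1 each had probe sets in both directions between the days.

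Of the genes of the older centriole and the cilium, Cep164 was 2-fold lower at day 6 on the probe set used. Cep164, a distal appendage protein needed for ciliation, read 161 in fl/fl and 203 in wt/wt organoids at day 6, against 389 in fl/fl and 449.8 in wt/wt organoids at day 4. A second probe set of the same gene read 137 and 169 in fl/fl and wt/wt organoids at day 6 and 161 and 159 at day 4. Cep41, which is needed for glutamylation of ciliary tubulin, read 31.7 in fl/fl and 33.8 in wt/wt organoids at day 6, and 61.9 and 99.5 at day 4. Its second probe set went the other way, with 41.0 and 39.0 in fl/fl and wt/wt organoids at day 6 and 29.7 and 20.9 at day 4. Cep89, another distal appendage gene, read 146 and 137 in fl/fl and wt/wt organoids at day 6, and 254 and 267 at day 4. Its second probe set past the filter had day differences of 0.03 in both genotypes.

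Cep83, which attaches the distal appendages, was higher at day 6. It read 83.6 in fl/fl and 84.7 in wt/wt organoids at day 6, against 42.7 in fl/fl and 22.4 in wt/wt organoids at day 4. Cep78 read 42.0 and 58.8 in fl/fl and wt/wt organoids at day 6, and 56.0 and 25.6 at day 4, so that its sign between the days differed by genotype. Cep19 was higher in fl/fl organoids on both days, with 156 against 116 in wt/wt organoids at day 6 and 128 against 82.6 at day 4. Cep162 read 51.0 in fl/fl and 59.8 in wt/wt organoids at day 6, and 81.8 and 52.2 at day 4. Cep290, of the ciliary transition zone, read at most 13.0 and did not pass the filter.

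None of the 3 subdistal appendage genes past the filter was 2-fold apart in any comparison. Cep170b read 519.7 in fl/fl and 485 in wt/wt organoids at day 6, and 639 and 505 at day 4. Nin, which encodes the microtubule anchoring protein ninein, read between 16.9 and 24.2 on the 4 arrays. Cep128 read 66.6 in fl/fl and 62.7 in wt/wt organoids at day 6, and 72.9 and 112 at day 4, so that wt/wt day 4 was its highest array. Ninl and Cep170 did not pass the filter. Ninl read 31.6 on the wt/wt day 6 array and at most 14.5 on the other 3.

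Both satellite genes past the filter were lower at day 6. Satellites are granules that carry proteins to the centrosome. Cep131 read 53.5 in fl/fl and 51.6 in wt/wt organoids at day 6, against 101 and 106 at day 4. Pcm1, the satellite scaffold, read 47.7 and 44.1 in fl/fl and wt/wt organoids at day 6, and 63.6 and 62.3 at day 4. Its 4 probe sets past the filter split, since another read 56.9 in fl/fl and 56.4 in wt/wt organoids at day 6, against 18.1 and 17.5 at day 4. Of the linker genes, which tether the 2 centrosomes of an interphase cell, Cep68 was higher at day 6 by 0.29 in fl/fl and 1.12 in wt/wt organoids. Cep250, the core linker protein, had day differences of -0.33 in fl/fl and -0.91 in wt/wt organoids, and at day 4 read 27.6 in fl/fl and 55.9 in wt/wt organoids.

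Cep55 had the largest mean day difference of the set. Its product acts at the midbody, where daughter cells separate, rather than at the centrosome. It read 297 in fl/fl and 289.9 in wt/wt organoids at day 6, against 83.7 in fl/fl and 63.998 in wt/wt organoids at day 4. The day difference was 1.65 in fl/fl and 1.94 in wt/wt organoids, and the genotypes differed by 0.03 at day 6 and 0.32 at day 4. The other Cep55 probe set, below the filter, went the other way between the days, with -0.44 in fl/fl and -0.31 in wt/wt organoids.

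Of the genes with no assigned role, Cep70, which binds gamma-tubulin, read 116 in fl/fl and 125 in wt/wt organoids at day 6, against 41.9 and 38.3 at day 4. Its second probe set went the other way, with 30.3 and 36.5 in fl/fl and wt/wt organoids at day 6 and 51.8 and 54.1 at day 4. Cep350 had the widest split. The probe set used read 159.9 in fl/fl and 179 in wt/wt organoids at day 6, and 109 and 73.3 at day 4, whereas its other one read 30.1 and 31.2 in fl/fl and wt/wt organoids at day 6 and 114 and 139 at day 4. Cep95 read 83.4 in fl/fl and 147 in wt/wt organoids at day 6, and 80.8 and 55.6 at day 4. Cep43 and Cep20, 2 genes of the FOP family of centriolar and ciliary proteins, were higher at day 6 by 0.04 and 0.53 in fl/fl organoids and by 0.64 and 0.63 in wt/wt organoids, though the fl/fl difference of Cep43 turned to -0.22 under quantile normalization and -0.17 with centring. Cep112, Cep126 and Cep295nl had their highest reading on the wt/wt day 4 array, with 34.2, 67.6 and 30.8.

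**Figure D3:**
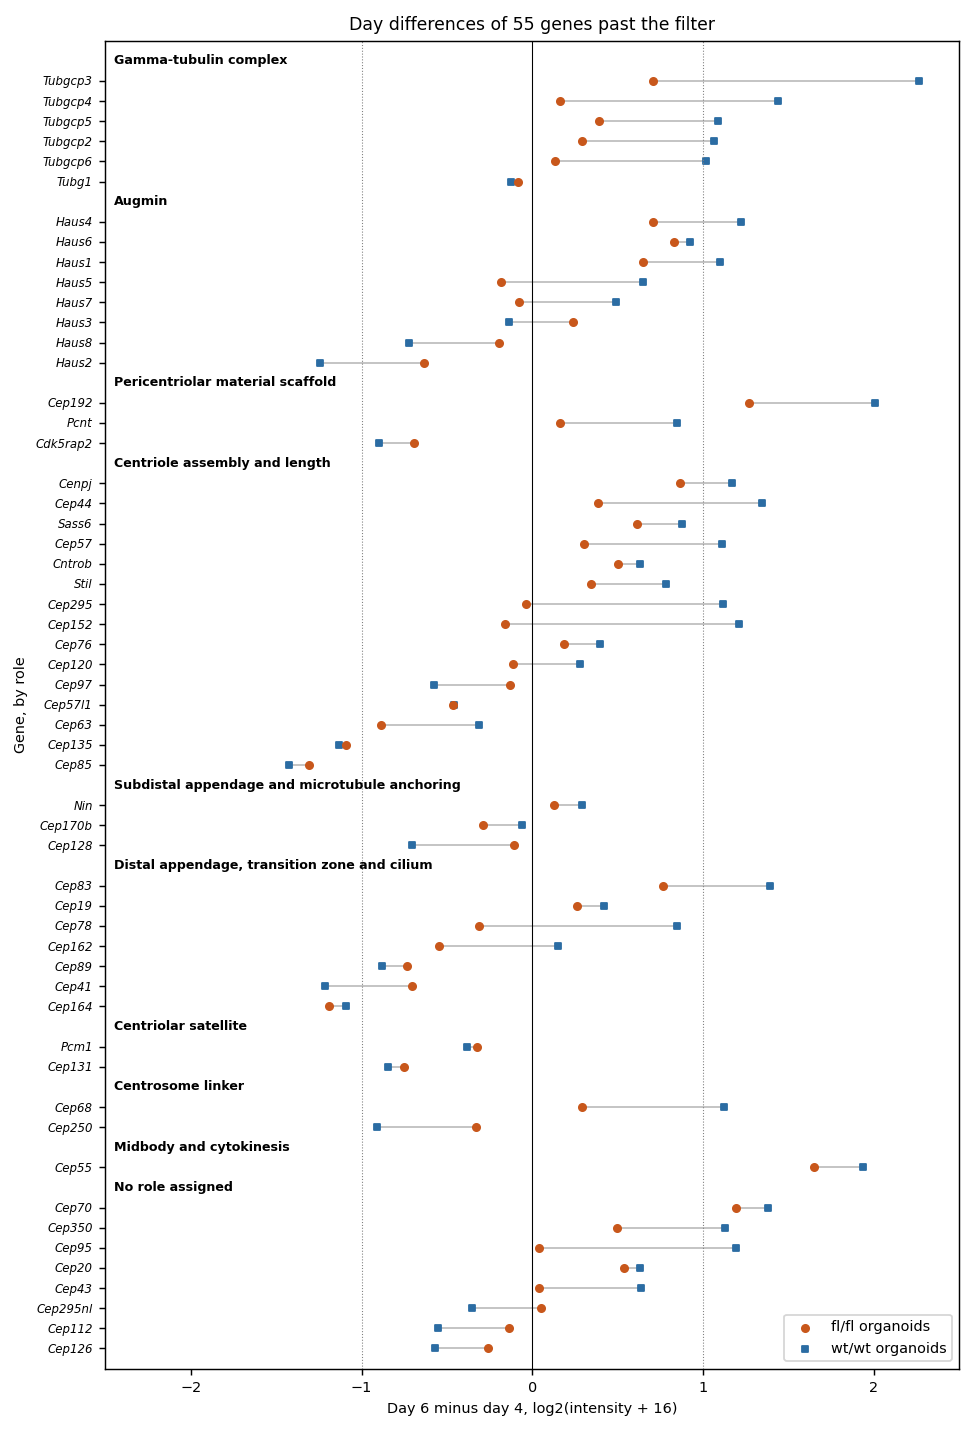
Day differences (day 6 minus day 4, log2(intensity + 16), horizontal axis) of the 55 genes past the filter, grouped by role. Circles stand for fl/fl and squares for wt/wt organoids, each from 1 array per day, and dotted lines mark 2-fold. The squares lie farther right than the circles for the 5 Tubgcp genes, and Cep55 and Cep192 are beyond the line in both genotypes.

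Counted over the set, more genes were 2-fold apart between the days in wt/wt organoids; in fl/fl organoids the counts were small. In fl/fl organoids 3 of the 55 genes were 2-fold higher at day 6 (5.45%, against 12.2% of all genes) and 3 were 2-fold lower (5.45%, against 2.90%). In wt/wt organoids 19 were 2-fold higher (34.5%, against 18.3% of all genes) and 5 were 2-fold lower (9.09%, against 2.97%). The median was 0.04 in fl/fl organoids, beside 0.00 for all genes, and 0.63 in wt/wt organoids, beside 0.17 for all genes. The wt/wt count was sensitive to scale. Quantile normalization gave 10 genes higher and 11 lower, when 10.4% and 9.70% of all genes were called. Centring each array on its median over the genes past the filter gave 5 higher and 11 lower. Of all genes, 9.20% and 11.8% were then called. The difference between the genotypes in these counts was not tested.

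Both genotypes shared 3 genes 2-fold higher at day 6, Cep55, Cep70 and Cep192 (5.45%, against 9.37% of all genes), and 3 genes 2-fold lower, Cep85, Cep135 and Cep164 (5.45%, against 1.35%). Cep135 passed the filter through its day 4 readings, since both day 6 readings lie below 16.9. With a pseudocount of 64 its day differences were -0.54 in fl/fl and -0.52 in wt/wt organoids. The other Cep164 probe sets past the filter had mean day differences of -0.06 and -0.02. The second probe set of Cep70 had -0.48 and that of Cep192 had 0.66. The fl/fl difference of Cep70 was 0.99 under quantile normalization and under centring, which left Cep55 and Cep192 as the shared higher genes. The 2 day differences share no array and correlated across the 55 genes at r = 0.83 (rho = 0.82), beside 0.80 across all genes. A limma model with additive terms for genotype and day over all 11392 genes has 1 residual degree of freedom and treats any difference between the genotypes' day effects as noise. With Benjamini-Hochberg adjustment it called 11 genes of the set higher at day 6 (20.0%, against 22.8% of all genes) and 8 lower (14.5%, against 7.15%). The lowest adjusted p in the set was 0.0043, for Cep55, which was higher at day 6 in 2 of 2 genotypes. For genotype, this limma fit called 0 genes of the set and 0 (0.0%) of all genes in either direction. At an unadjusted p under 0.05 it named 1 gene of the set and 609 of all genes.

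**Figure D4:**
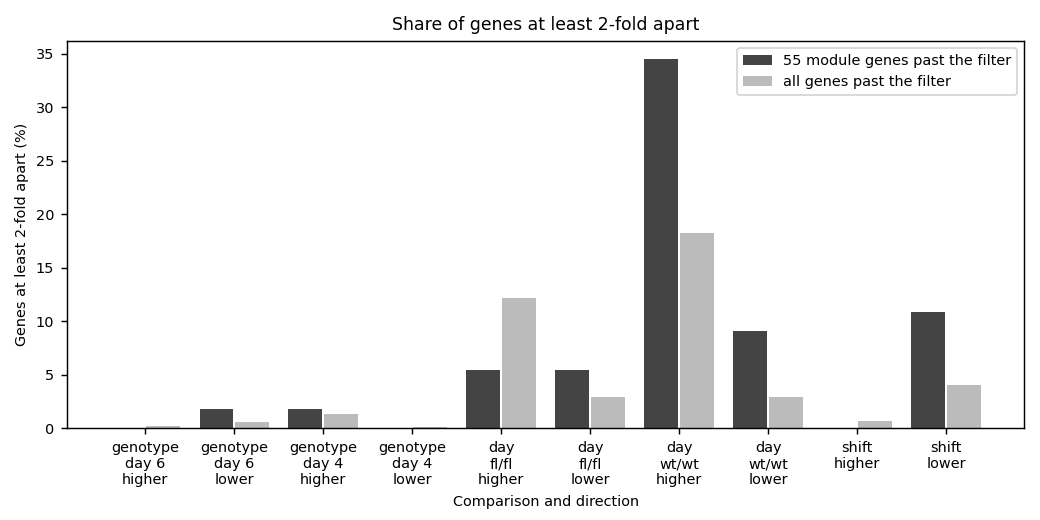
Share of genes at least 2-fold apart (vertical axis, per cent) among the 55 genes of the set (dark) and all 11392 genes past the filter (light), by comparison and direction; shift is the genotype difference at day 6 minus that at day 4. On the scale as deposited, the largest gap is for genes higher at day 6 in wt/wt organoids, 34.5% against 18.3%. That gap depends on the scale. Quantile normalization left 10 of the 55 genes higher, against 10.4% of all genes, and centring left 5, against 9.20%.

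The genotype difference at day 6 minus that at day 4 was at least 1 below 0 for 6 of the 55 genes (10.9%, against 4.10% of all genes) and at least 1 above 0 for none (against 0.650%). The 6 were Tubgcp3 (-1.56), Cep152 (-1.37), Tubgcp4 (-1.28), Cep78 (-1.16), Cep295 (-1.15) and Cep95 (-1.15). The median over the set was -0.26, beside -0.09 for all genes. This shift, the day 4 genotype difference and the wt/wt day difference share the wt/wt day 4 array and are not independent. That array had the lowest of the 4 values for 32 of the 55 genes (58.2%, against 45.0% of all genes), and the wt/wt day 6 array had the highest for 24 (43.6%, against 20.9%). Both held for 23 genes (41.8%, against 15.7%). Among the 4 arrays, wt/wt day 4 also had the highest median intensity over all probe sets, 17.7, and the lowest median over the genes past the filter, 6.38 on the log2 scale, against 6.59 to 6.80 on the others. With each array centred on its median over the genes past the filter, Tubgcp3 was no longer 2-fold apart between genotypes at day 4 (0.95). In that setting 3 genes stayed in the shift count.

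**Figure D5:**
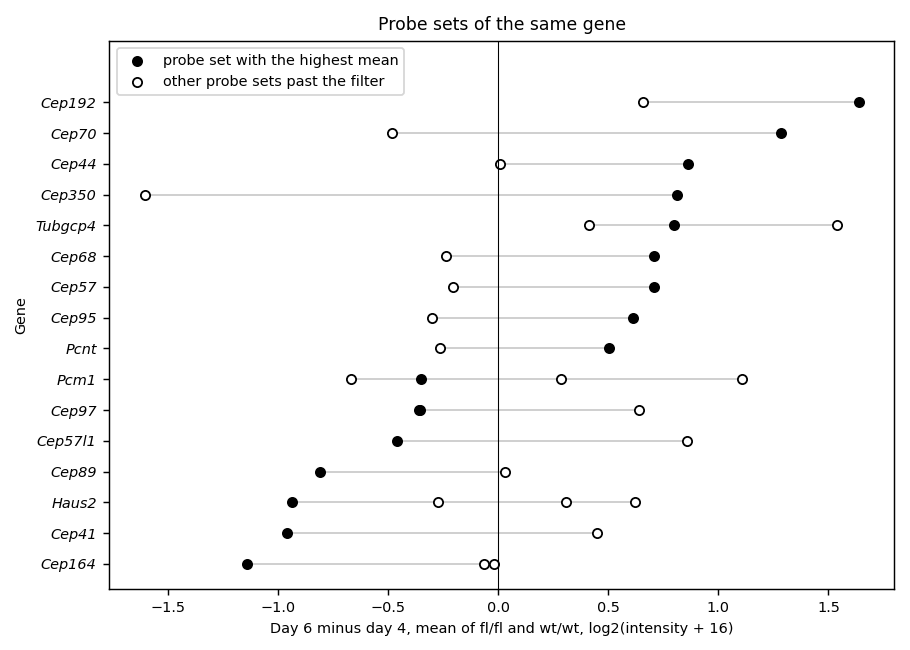
Day difference, as the mean of fl/fl and wt/wt (day 6 minus day 4, log2(intensity + 16), horizontal axis), of every probe set past the filter for the 16 genes with more than 1. Filled points are the probe sets with the highest mean, which represent the gene, and open points the others. Cep350 spans the widest range, and all probe sets of Cep192 and Tubgcp4 lie above 0. The open point of Cep44 lies at 0.007, the mean of -0.41 in fl/fl and 0.43 in wt/wt organoids.

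Probe sets of the same gene often disagreed. Of the 55 genes, 39 had 1 probe set past the filter and 16 had several. Over these 16, all probe sets had the same sign between the days for 2 genes in fl/fl and 3 genes in wt/wt organoids. Cep192 and Tubgcp4 agreed in both, and Cep44 in wt/wt organoids. Of the 19 genes called higher in wt/wt organoids, 11 had 1 probe set, 3 had several that agreed, and 5 had some that disagreed (Cep57, Cep68, Cep70, Cep95 and Cep350). Of the 5 called lower, Cep85 and Cep135 had 1 probe set past the filter, and Cep41, Cep164 and Haus2 had some that disagreed. The sources used here do not give where along the transcripts the probe sets lie.

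Other genes of the same structures, from a list of 40, were all on the array and 37 passed the filter. Between the days, 5 were 2-fold higher and 2 lower at day 6 in fl/fl, and 9 and 2 in wt/wt organoids. Of all genes, 12.2% were higher and 2.90% lower in fl/fl, and 18.3% and 2.97% in wt/wt organoids. The list had medians of 0.34 and 0.27. The highest were Cetn3, a centrin of the centriole lumen, with day differences of 1.81 in fl/fl and 1.75 in wt/wt organoids, and Plk4, the kinase that starts centriole duplication, with 1.45 and 1.81. Ssx2ip had 1.34 in fl/fl and 1.44 in wt/wt organoids, and Nek2, the kinase that dissolves the centrosome linker, had 1.39 and 1.01. Nedd1, which docks the gamma-tubulin ring, had 0.95 in fl/fl and 1.37 in wt/wt organoids, and Mzt1, a small ring subunit, had 1.04 and 1.38. Spice1 (-1.01 in fl/fl and -1.19 in wt/wt organoids) and Sfi1 (-1.03 and -1.10) were the 2 that were at least 2-fold lower in both.

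None of the 37 had a genotype shift of 1 or more in either direction, beside 4.10% of all genes lower and 0.650% higher; Crocc, with 0.995, lay just under that line. Crocc, which encodes the rootlet protein, was the only one of the 37 that was 2-fold apart between genotypes, with genotype differences of -0.02 at day 6 and -1.01 at day 4. It read 53.0 in fl/fl and 53.8 in wt/wt organoids at day 6, and 47.7 in fl/fl and 113 in wt/wt organoids at day 4. Of 20 proliferation genes, 19 were on the array and passed the filter, with median day differences of 1.01 in fl/fl and 1.20 in wt/wt organoids. Among these, 10 were 2-fold higher in fl/fl and 12 in wt/wt organoids and 0 were 2-fold lower in either, beside 12.2% and 18.3% of all genes higher. The largest were Pcna (2.57 and 1.97), Top2a (2.17 and 1.81), Mcm4 (1.48 and 2.36), Cdk1 (1.78 and 1.40), Rrm2 (1.29 and 1.23) and Mcm6 (1.27 and 1.24), whereas Mki67 had 0.43 in fl/fl and -0.25 in wt/wt organoids. The medians of the centrosome set, 0.04 and 0.63, lay below those of the proliferation genes in both genotypes; this difference was not tested.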

How the data were processed

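RNA of 4 organoid cultures was hybridised to 4 Affymetrix arrays, 1 per group, grouped by their titles. The deposited values are linear intensities of 45101 probe sets, as the values themselves show; the sources used here do not give the authors' summarisation, background correction or normalization. The number of arrays limits the precision. The platform's gene table gave 1 symbol to 34958 probe sets, several to 932 and did not list 9211. Symbols were updated by Entrez ID through RefSeq (GRCm38.p6), which matched 34741 of 34945 probe sets that were not controls. Values were analysed as log2(intensity + 16), with the probe set of highest mean per gene. Counts used the 11392 genes whose mean reached 5.04 (log2), the median of all probe sets. Groups had 1 array, so the main results have no test. An additive limma fit was an alternative, tested on simulated data with independent errors and no array-wide shift or difference between the genotypes' day effects. Others were quantile normalization, centring, pseudocounts of 1 and 64, 2 filters, averaged probe sets, no x_at or s_at probe sets and, added after seeing the data, agreeing probe sets. Named genes were all genes of the set, and of the centrosome and proliferation lists up to 6 with the largest mean day differences. Crocc, Tubg2, Foxj1, Ccdc39 and Mki67 fall outside this rule and were named after their values were seen. The genes and lists were chosen with earlier results of these data known. Python 3.11.15, pandas 2.3.3, R 4.3.3 and limma 3.58.1 were used.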

Additional observations from a re-analysis of the deposited data

Results flagged for a closer look

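For 6 genes of the set, fl/fl organoids were above wt/wt organoids at day 4 and below them at day 6, with a shift of at least 1 on the log2 scale, so the genotype difference pointed in opposite directions on the 2 days. The shift (day 6 minus day 4) was -1.56 for Tubgcp3, -1.37 for Cep152, -1.28 for Tubgcp4, -1.16 for Cep78, -1.15 for Cep295 and -1.15 for Cep95. With 1 array per group, these differences between the days were not tested. Of the other 2 Tubgcp4 probe sets past the filter, 1 had opposite genotype signs on the 2 days (-1.03 at day 6 and 0.35 at day 4). The other was higher in fl/fl organoids on both days (0.08 and 0.14), with a shift of -0.07. The second Cep95 probe set had a shift of 0.27. For Cep295 the other probe set, below the filter, had a shift of -0.02.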

How the results depend on the processing

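Without x_at and s_at probe sets, every count and median of the set stayed within 1.5 times, or within 0.1 for medians. After quantile normalization the median of the set was 0.14 between genotypes at day 4, -0.080 between days in fl/fl and 0.21 in wt/wt organoids. Cep295 was then no longer called at day 6 (0 lower), and the wt/wt day calls were 10 higher and 11 lower. Centring each array gave medians of 0.10 between genotypes at day 4, -0.17 and 0.24 between days in fl/fl and wt/wt organoids, and -0.082 for the genotype shift. It left 0 genes called higher at day 4 between genotypes, 5 higher and 11 lower between days in wt/wt organoids, and 3 in the shift. These 2 scalings gave a median wt/wt day difference of all genes of -0.13 and -0.22, beside 0.17 as deposited. A pseudocount of 64 left 0 genes called between genotypes on either day, 1 higher between days in fl/fl organoids, 4 higher and 1 lower in wt/wt organoids, and 0 in the shift. The medians were then 0.14 between genotypes at day 4, 0.37 between days in wt/wt organoids and -0.16 for the shift. A pseudocount of 1 gave 4 genes higher between genotypes at day 4, 8 lower between days in wt/wt organoids, and 10 in the shift, with a median shift of -0.43. Without a filter the medians were 0.18 between genotypes at day 4 and 0.46 between days in wt/wt organoids. At a mean intensity of 64, 32 genes of the set were left, with 0 lower between genotypes at day 6, and 12 higher and 3 lower between days in wt/wt organoids. Averaging the probe sets of each gene left 51 genes, and the medians were 0.086 between genotypes at day 4, 0.28 between days in wt/wt organoids and -0.16 for the shift. The counts were then 0 lower between genotypes at day 6, 0 higher and 1 lower between days in fl/fl organoids, 9 higher and 1 lower in wt/wt organoids, and 3 in the shift. Cep350 reversed to -0.38 between days in wt/wt organoids. Keeping only genes whose probe sets agree left 2 lower between days in wt/wt organoids. The additive limma fit called 11 higher and 8 lower between days, beside 3 and 3 at 2-fold in both genotypes. The higher filter and the agreeing probe sets leave fewer genes by construction. For the other settings the cause was not tested. No paired analysis was possible because the groups have 1 array each and share no replicate numbers; the additive fit instead pairs the days within each genotype. For the same reason no replicate could be left out. Low signal limits the dim genes: a reading near the filter leaves little room for a 2-fold lower one.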
